A study of Homo sapiens with 6 samples.

Results

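The genes described here are 38 genes of the hypoxia response and of glycolysis, chosen by symbol: the oxygen-regulated HIF subunits and the enzymes that sense oxygen, the glycolytic enzymes and their regulators, the carriers of glucose and lactate, and further targets of the HIF transcription factors. Of the 38, 20 had a row that the platform annotation names, of 14884 named genes in all. Their RNA was measured in A549, an established human lung cancer cell line, 48 hours after transfection with a control siRNA (siNC), with MYEOV siRNA 1 (siMYEOV #1) or with MYEOV siRNA 2 (siMYEOV #2), with 2 arrays per group. All 3 groups received siRNA through the same lipid reagent, and cells without siRNA were not analysed here. The siRNA sequences are not given in the labels used here, and the labels state no oxygen level for the culture. Whether the arrays of a group repeat the transfection or only the array work is not stated either, so the p-values below cover the spread among arrays, technical or biological. Affymetrix whole-transcript arrays were used. Values are log2 RMA signals, so a difference of 1 is a 2-fold change, and n = 2 arrays per group throughout.

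HIF1A and EPAS1, the oxygen-regulated HIF subunits, pair with ARNT and switch on genes for glucose uptake, glycolysis, blood vessel growth and survival at low oxygen. At normal oxygen the prolyl hydroxylases EGLN1 and EGLN3 mark the HIF subunits, and VHL, part of a ubiquitin ligase, sends them for degradation. EGLN3, and in many cells EGLN1, are themselves HIF targets. Many cancer cells run glycolysis at a high rate even with oxygen present. HIF protein and its hydroxylation were not measured here, only RNA.

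HIF binds a short DNA core, ACGTG or GCGTG. The stretches of 250 bases before the gene start are shown for the members of the pathway that were tested, had a single start in the RefSeq promoter table (build GRCh38.p14) and held ACGTG on either strand, 5 of the 10 tested members with a single start. They put EGLN1, which differed with siRNA 2, beside BNIP3, GPI, GAPDH and PGK1, which were called in no comparison. Capitals mark ACGTG and GCGTG or their reverse complements, CACGT and CACGC. The letters run 5′ to 3′ on the gene's own strand.
EGLN1 (chr1:231422288-231422537, minus strand): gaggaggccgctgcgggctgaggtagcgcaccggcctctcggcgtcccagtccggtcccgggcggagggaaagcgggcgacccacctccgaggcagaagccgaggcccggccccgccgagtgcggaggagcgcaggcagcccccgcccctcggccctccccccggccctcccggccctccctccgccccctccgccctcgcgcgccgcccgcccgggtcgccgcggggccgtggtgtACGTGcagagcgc
BNIP3 (chr10:131981924-131982173, minus strand): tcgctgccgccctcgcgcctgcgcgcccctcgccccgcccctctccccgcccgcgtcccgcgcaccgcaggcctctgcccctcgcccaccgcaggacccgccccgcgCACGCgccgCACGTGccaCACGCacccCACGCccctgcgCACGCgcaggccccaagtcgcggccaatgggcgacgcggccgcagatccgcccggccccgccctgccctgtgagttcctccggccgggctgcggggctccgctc
GPI (chr19:34364742-34364991, plus strand): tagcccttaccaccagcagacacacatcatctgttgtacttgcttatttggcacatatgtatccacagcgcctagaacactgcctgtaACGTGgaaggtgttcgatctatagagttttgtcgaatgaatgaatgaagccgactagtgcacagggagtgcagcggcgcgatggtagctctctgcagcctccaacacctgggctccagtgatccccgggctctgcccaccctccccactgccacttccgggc
GAPDH (chr12:6535014-6535263, plus strand): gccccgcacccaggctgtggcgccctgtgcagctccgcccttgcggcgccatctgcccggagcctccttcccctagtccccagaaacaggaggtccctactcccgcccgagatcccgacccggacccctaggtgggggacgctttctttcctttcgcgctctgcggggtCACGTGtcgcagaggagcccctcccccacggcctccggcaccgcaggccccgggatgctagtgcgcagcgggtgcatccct
PGK1 (chrX:78103998-78104247, plus strand): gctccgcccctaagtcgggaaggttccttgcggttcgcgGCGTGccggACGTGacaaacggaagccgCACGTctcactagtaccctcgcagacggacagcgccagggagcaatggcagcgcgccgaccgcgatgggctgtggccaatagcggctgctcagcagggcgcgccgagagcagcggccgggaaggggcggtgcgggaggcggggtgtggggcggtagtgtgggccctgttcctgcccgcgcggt

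EGLN1 held a single ACGTG, which began 13 bases before the start. PGK1, GAPDH and BNIP3 each held 2 matches of ACGTG on either strand, counting the 2 strands of a palindromic CACGTG separately, and GPI held 1. Over the 35116 windows of this length in the table, 18.5% held ACGTG on either strand and 32.2% held GCGTG. Among the 61 windows of the 33 members that matched by symbol, the shares were 36.1% and 34.4%. A gene may have several windows that overlap, and a match is not a bound site. VHL, SLC2A3, BNIP3L, VEGFA and NDRG1 had no window here.

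No row was named for HIF1A, VHL, SLC2A1, SLC2A3, SLC16A3, PFKP, PFKL, PFKM, PFKFB3, PFKFB4, ALDOA, ALDOC, ENO1, ENO2, PKM, PDK1, CA9 or P4HA1, and these 18 were not analysed here. Both glucose carriers, the lactate exporter, every phosphofructokinase, aldolase, enolase and pyruvate kinase of the list are among them. Each of the 20 measured members had 1 row. Of these, 17 reached a mean over the 6 arrays of 5.45, which is the median over the named genes, and entered the tests with 7442 genes in all. EGLN3, HK2 and ANKRD37 lay below it. This filter took all arrays together and so used no group.

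The samples were first checked against their labels. MYEOV, the targeted gene, had signals of 6.20 and 6.50 on the control arrays and between 4.70 and 5.34 on the 4 arrays of the MYEOV siRNAs. The pairwise correlation of the arrays over the tested genes ran from 0.981 to 0.994, and none stood apart. Of 7 epithelial markers 5 had a row and 4 passed the filter, among them EPCAM, with a mean signal of 7.16. None of the 4 was called in any comparison. With MYEOV siRNA 2 the arrays of all 4 did not overlap the control arrays, as for 50.6% of all tested genes. EPCAM lay above, by a log2 difference of 0.23, and KRT8, KRT18 and KRT19 below, by -0.34, -0.21 and -0.25. Markers of alveolar type 2, endothelial and fibroblast cells, 10 with a row in all, had mean signals from 1.79 to 5.13, below the filter. NKX2-1 and the surfactant genes were among them, so the lung lineage of A549 was not visible in these markers. Of 3 leukocyte markers with a row, CD68, a lysosomal protein also made by epithelial cells, passed at 9.33.

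**Figure D1:**
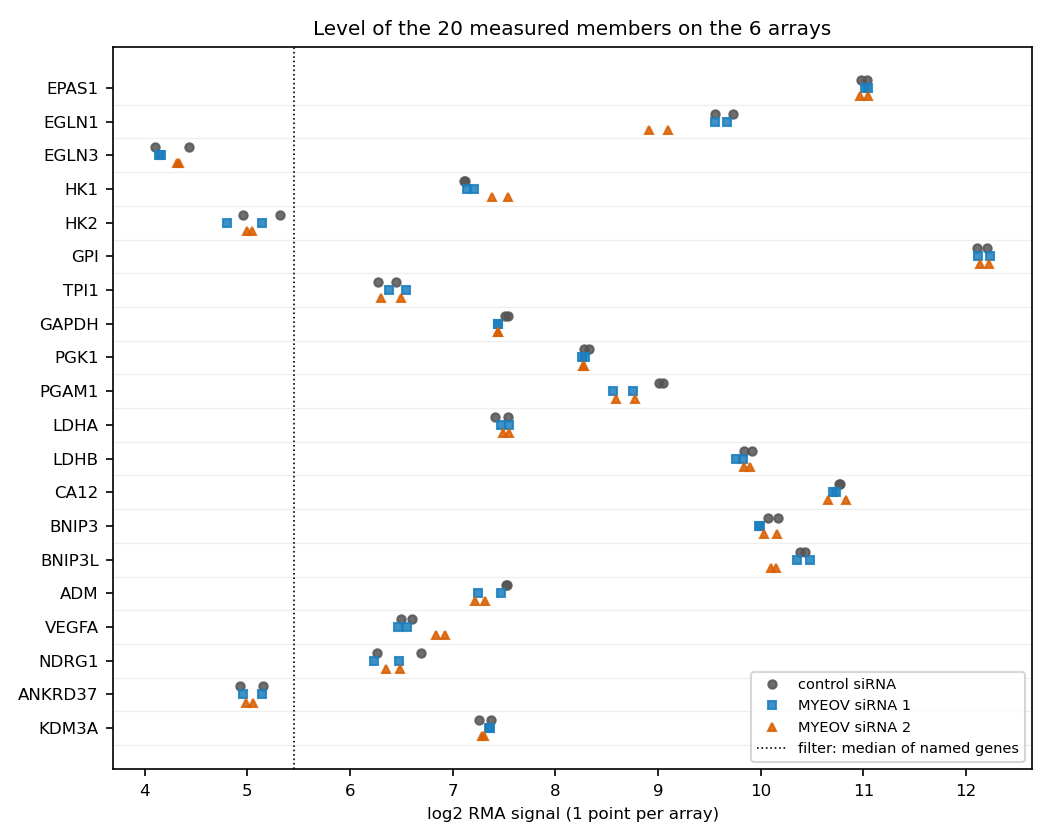
Signal of each of the 20 measured members (rows) on the 6 arrays, in log2 RMA units, with 1 point per array and the dotted line at the filter of 5.45. EGLN3, HK2 and ANKRD37 lie left of the line, and the MYEOV siRNA 2 points of EGLN1, HK1 and VEGFA lie apart from the other 4.

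At baseline, on the 2 control arrays, the oxygen-sensing genes had signals of 11.04 and 10.98 for EPAS1 and 9.55 and 9.73 for EGLN1. EGLN3, the hypoxia-inducible hydroxylase, had 4.10 and 4.43, below the filter. Rows differ in how well their probes bind, so a level of one gene cannot be set against that of another. Among the glycolytic enzymes, GPI, which turns glucose 6-phosphate into fructose 6-phosphate, had 12.11 and 12.21. HK1, the housekeeping hexokinase, had 7.11 and 7.12, and HK2, the inducible hexokinase, had 5.31 and 4.95, below the filter. The control signals were 6.27 and 6.45 for TPI1, 7.54 and 7.51 for GAPDH, 8.33 and 8.28 for PGK1, and 9.01 and 9.05 for PGAM1. These 4 enzymes carry out successive steps of the lower pathway, from triose phosphate to 2-phosphoglycerate. LDHA, the lactate dehydrogenase that HIF raises, had 7.41 and 7.54, and LDHB, its partner subunit, 9.83 and 9.92.

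Of the other HIF targets, CA12, a membrane carbonic anhydrase, had control signals of 10.76 and 10.77, and the mitophagy receptors BNIP3 and BNIP3L had 10.07 and 10.17, and 10.38 and 10.43. ADM, a vasodilator peptide, had 7.52 and 7.53, KDM3A, a histone demethylase, 7.26 and 7.37, and VEGFA, the main growth factor of blood vessels, 6.60 and 6.50. NDRG1, a stress-induced protein, had 6.69 and 6.26. ANKRD37 had 4.92 and 5.15, below the filter. The gap of NDRG1 between the control arrays, 0.43, was the widest of any tested member, where the median member gap was 0.09 in that group against 0.10 over all tested genes.

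Some of these genes have many pseudogene copies that probes may not tell apart. The RefSeq gene table lists 65 pseudogenes named after GAPDH, 46 after BNIP3, 13 after PGAM1, 6 after LDHA, 4 after TPI1, 3 after LDHB and 2 after PGK1. It lists 1 each after EGLN1, EGLN3, HK2 and KDM3A. The row named PGAM1 stood out further. All 10 named rows next to it by row number belong to genes of chromosome 12, whereas PGAM1 lies on chromosome 10. For each of the other 19 measured members the 10 nearest named rows belonged to the gene's own chromosome. Which transcripts the PGAM1 row measures is therefore uncertain.

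With MYEOV siRNA 1, 0 of the 17 tested members differed from control at a Benjamini-Hochberg adjusted p under 0.05 in limma, where 4.66% of all 7442 tested genes were called, 2.28% higher and 2.38% lower. At an unadjusted p under 0.05 there was 1 member, PGAM1, against 19.2% of all tested genes. EPAS1 and EGLN1 had log2 differences of 0.02 and -0.03. The median difference of the members was -0.03 and the median of its absolute size 0.05, beside -0.003 and 0.10 over all tested genes. For 16 of the 17 members the 95% confidence interval lay within 0.5 of 0 on the log2 scale, and for 11 within 0.25. The exception was PGAM1.

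PGAM1, phosphoglycerate mutase, had signals of 9.01 and 9.05 with control siRNA, of 8.56 and 8.76 with siRNA 1 and of 8.59 and 8.77 with siRNA 2. All 4 siRNA arrays lay below both control arrays. Of all tested genes, 24.4% had both siRNA 1 arrays below the control arrays and 25.6% had both siRNA 2 arrays below them. The share with all 4 below was not counted. Its log2 difference was -0.37 ± 0.10 (SE) with siRNA 1 (limma, Benjamini-Hochberg adjusted p = 0.0882, interval -0.60 to -0.14) and -0.35 ± 0.10 with siRNA 2 (adjusted p = 0.0821, interval -0.58 to -0.12). Neither passed the threshold, and both comparisons use the same 2 control arrays. Each was called under 3 of the 14 alternatives. With the filter at the 75th percentile, which tests fewer genes, the limma adjusted p was 0.0317 with siRNA 1 and 0.0294 with siRNA 2. Over the 14 alternatives it ran from 0.0317 to 0.332 and from 0.0294 to 0.307.

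ADM had 7.25 and 7.47 with siRNA 1 and 7.31 and 7.21 with siRNA 2, each below the 7.52 and 7.53 of the control arrays. Its log2 differences were -0.16 ± 0.09 (SE) and -0.26 ± 0.09 (limma, Benjamini-Hochberg adjusted p = 0.390 and 0.151). BNIP3 had 9.98 and 9.99 with siRNA 1, below both control arrays, and 10.04 and 10.15 with siRNA 2, which overlapped them. Its difference with siRNA 1 was -0.13 ± 0.08 (adjusted p = 0.406). These values did not pass the threshold. In all, 7 of the 17 members had siRNA 1 arrays that did not overlap the control arrays, 1 above and 6 below. Of all tested genes 48.8% did the same, 24.4% above and 24.4% below.

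**Figure D2:**
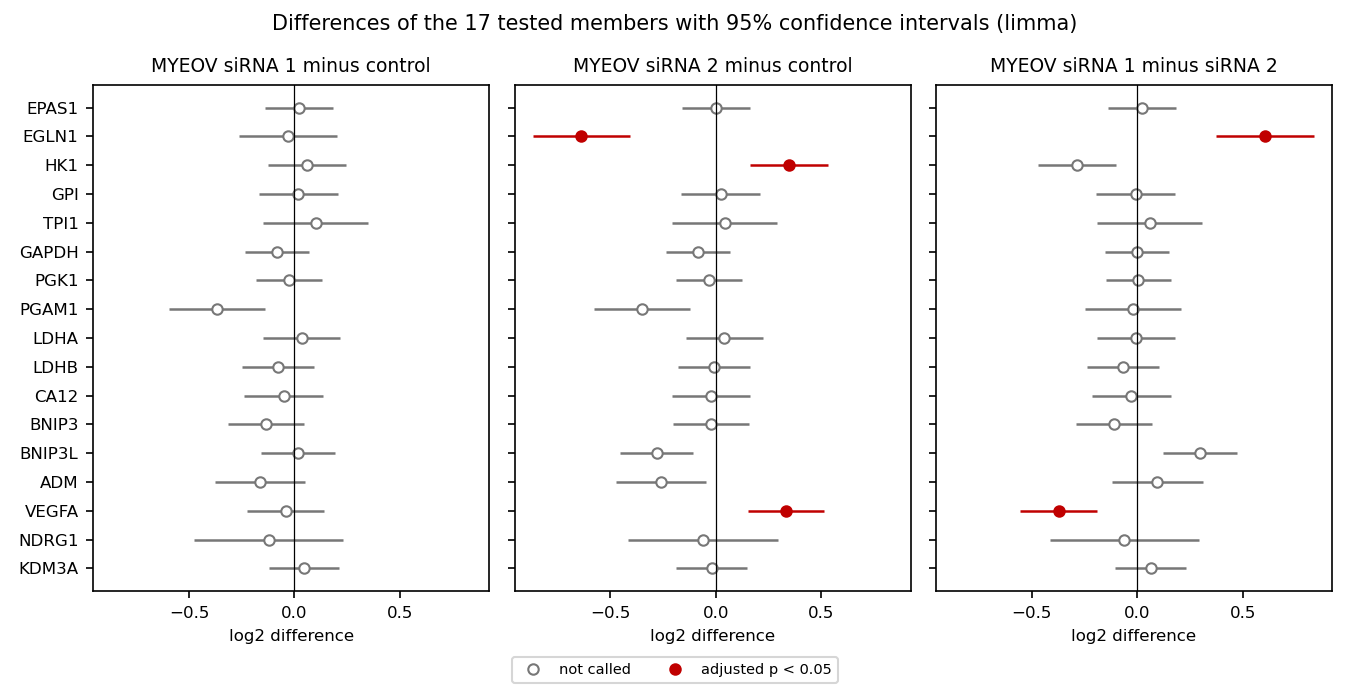
Log2 differences of the 17 tested members in the 3 comparisons, with limma's 95% confidence intervals as bars and genes called at an adjusted p under 0.05 filled in red. No member is red for siRNA 1, EGLN1, HK1 and VEGFA are for siRNA 2, and EGLN1 and VEGFA are between the siRNAs.

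With MYEOV siRNA 2, 3 of the 17 tested members differed from control, where 6.83% of all tested genes were called. The prolyl hydroxylase EGLN1 fell, as did 4.23% of all tested genes, and the hexokinase HK1 and the growth factor VEGFA rose, as did 2.59%. With any 1 array left out, HK1 and VEGFA lost their calls, and EGLN1 lost its call in some of these fits. Fewer genes were then called over all tested genes as well. The log2 differences then ran from -0.73 to -0.55 for EGLN1, from 0.27 to 0.42 for HK1 and from 0.28 to 0.38 for VEGFA. At an unadjusted p under 0.05 there were 6 members, against 22.2% of all tested genes. The median difference over the 17 members was -0.02 and the median of its absolute size 0.04, beside 0.001 and 0.10 over all tested genes. By role, 1 of 2 oxygen-sensing genes was called lower, 1 of 6 glycolytic enzymes higher, 0 of 2 lactate dehydrogenases in either direction, and 1 of 7 other HIF targets higher. The arrays did not overlap for 7 members, 2 above and 5 below control, against 50.6% of all tested genes, 25% above and 25.6% below.

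EGLN1 had signals of 9.55 and 9.73 with control siRNA, 9.56 and 9.67 with siRNA 1, and 8.91 and 9.10 with siRNA 2. Both siRNA 2 arrays lay below the other 4, and the siRNA 1 and control arrays overlapped. EGLN1 fell by 0.64 ± 0.10 (SE) on the log2 scale with siRNA 2 (interval -0.87 to -0.41, limma, Benjamini-Hochberg adjusted p = 0.0120), so that the linear signal fell by 35.8%. With siRNA 1 its difference was -0.03 (interval -0.26 to 0.20, adjusted p = 0.899). The siRNA 2 call was lost without control replicate 2 (adjusted p = 0.0671), without siRNA 2 replicate 1 (0.0650) and with no filter (0.0919). Over the 14 alternatives the limma adjusted p ran from 0.00149 to 0.0919, and 11 of them kept the call. EPAS1, the oxygen-regulated HIF subunit measured here, had 10.97 and 11.04 with siRNA 2 and a difference of -0.001 (interval -0.16 to 0.16).

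HK1, which traps glucose in the cell as glucose 6-phosphate, had 7.11 and 7.12 with control siRNA, 7.21 and 7.14 with siRNA 1, and 7.38 and 7.54 with siRNA 2. Both siRNA 2 arrays were the highest of the 6. HK1 rose by 0.35 ± 0.08 (SE) with siRNA 2 (interval 0.16 to 0.53, limma, Benjamini-Hochberg adjusted p = 0.0467), a signal 27.1% higher. The call lay close to the threshold. It was lost when any array was left out, with adjusted p = 0.155 and 0.133 without control replicates 1 and 2, 0.0844 without either siRNA 1 array, and 0.0723 and 0.217 without siRNA 2 replicates 1 and 2. With no filter it was 0.228 and with the 2 groups alone 0.0844. Over the 13 alternatives in which HK1 was tested the range was 0.0327 to 0.228, and 5 of them kept the call.

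VEGFA had 6.60 and 6.50 with control siRNA, 6.55 and 6.46 with siRNA 1, and 6.92 and 6.84 with siRNA 2. Both siRNA 2 arrays were again above the other 4. VEGFA rose by 0.33 ± 0.08 (SE) with siRNA 2 (interval 0.15 to 0.51, limma, Benjamini-Hochberg adjusted p = 0.0499), a signal 25.8% higher. This value sat at the threshold, and 2 of the 13 alternatives in which VEGFA was tested kept the call, with adjusted p from 0.0259 to 0.239. Among those that ended it were median centring (0.0589), the trend and robust prior (0.0547), averaged rows (0.0502), the 2 groups alone (0.0847) and no filter (0.239). It was 0.101 and 0.163 without control replicates 1 and 2, 0.0847 without either siRNA 1 array, and 0.201 and 0.130 without siRNA 2 replicates 1 and 2. With siRNA 1 the difference of VEGFA was -0.04 (interval -0.22 to 0.14).

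BNIP3L had 10.38 and 10.43 with control siRNA, 10.36 and 10.49 with siRNA 1, and 10.10 and 10.15 with siRNA 2. Those of siRNA 2 were the lowest of the 6, but the difference of -0.28 ± 0.07 (SE) did not pass the threshold (limma, Benjamini-Hochberg adjusted p = 0.0730, from 0.0168 to 0.282 over the 14 alternatives). It was called under 3 of them, including the filter at the 75th percentile (0.0236) and the trend and robust prior (0.0168). BNIP3, the related receptor, had a difference of -0.03 with siRNA 2 (interval -0.21 to 0.15).

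The remaining glycolytic enzymes and lactate dehydrogenases showed small differences. GAPDH had signals from 7.44 to 7.45 on the 4 arrays of both siRNAs, below the 7.54 and 7.51 of the control arrays, and its difference was -0.08 with each siRNA (interval -0.24 to 0.07 with siRNA 1, -0.23 to 0.07 with siRNA 2). GPI, TPI1 and PGK1 had differences of 0.02, 0.10 and -0.03 with siRNA 1 and of 0.02, 0.04 and -0.03 with siRNA 2. LDHA had 0.03 and 0.04, and LDHB -0.08 and -0.01. None was called, and the farthest end of their intervals was that of TPI1 with siRNA 1, at 0.35. CA12 and KDM3A had differences of -0.05 and 0.04 with siRNA 1 and of -0.02 and -0.02 with siRNA 2. NDRG1 had -0.12 and -0.06, with the widest standard error of the 17 tested members, 0.15. Of the 14 uncalled members, 13 had an interval within 0.5 of 0 with siRNA 2, the exception being PGAM1.

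The 3 members below the filter were fitted only with no filter. EGLN3 had 4.16 and 4.13 with siRNA 1 and 4.33 and 4.32 with siRNA 2, HK2 ran from 4.80 to 5.14 on these 4 arrays, and ANKRD37 had 5.14 and 4.96, and 5.05 and 4.98. All of these ranges overlapped the control values. Their differences with siRNA 2 were 0.06, -0.11 and -0.02 (limma, Benjamini-Hochberg adjusted p = 0.903, 0.847 and 0.961).

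**Figure D3:**
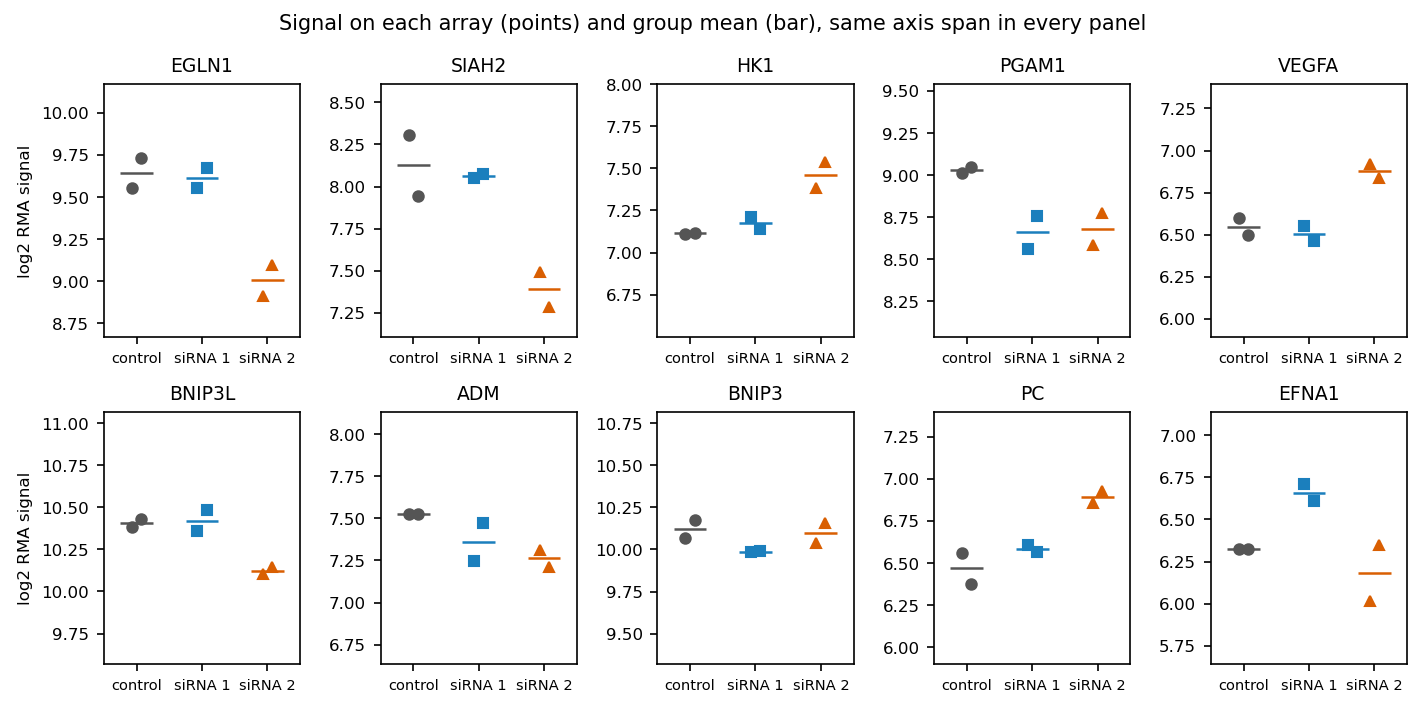
Log2 RMA signal on each array (points) and group means (bars) for 7 members and for SIAH2, PC and EFNA1 of the wider pathway, with the same axis span in every panel. EGLN1, SIAH2 and BNIP3L are lowest and HK1, VEGFA and PC highest on the siRNA 2 arrays, while PGAM1 is lower on all 4 arrays of the MYEOV siRNAs than on the control arrays.

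Between the siRNAs, 2 of the 17 tested members differed, where 9.15% of all tested genes were called, 5.37% higher with siRNA 1 and 3.78% lower. An unadjusted p under 0.05 was seen for 4 members and for 23.6% of all tested genes. EGLN1 was higher with siRNA 1 than with siRNA 2 by 0.61 ± 0.10 (SE) (limma, Benjamini-Hochberg adjusted p = 0.0114, interval 0.38 to 0.84). VEGFA was lower with siRNA 1 by a log2 difference of -0.37 ± 0.08 (interval -0.55 to -0.19, adjusted p = 0.0274). The arrays of the 2 siRNAs did not overlap for either gene. The EGLN1 call was lost without siRNA 1 replicate 2 (0.0838), without siRNA 2 replicate 1 (0.0643) and with no filter (0.0797). The VEGFA call was lost without siRNA 1 replicate 1 or 2 (0.0864 and 0.152), without siRNA 2 replicate 1 or 2 (0.142 and 0.0778) and with no filter (0.157). Over the alternatives, adjusted p ran from 0.00167 to 0.0838 for EGLN1 and from 0.0154 to 0.157 for VEGFA.

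HK1 and BNIP3L also had arrays that did not overlap between the siRNAs, with differences of -0.29 ± 0.08 (SE) and 0.30 ± 0.07, but did not pass the threshold (limma, Benjamini-Hochberg adjusted p = 0.0685 and 0.0536). So the rise of HK1 with siRNA 2 is not shown to differ from its value with siRNA 1. BNIP3L was called higher with siRNA 1 than with siRNA 2 under 5 of the 14 alternatives, among them quantile normalization (0.0490) and median centring (0.0460), and its adjusted p ran from 0.0107 to 0.244. PGAM1 differed by -0.02 between the siRNAs (interval -0.25 to 0.21). In all, 7 members had arrays that did not overlap between the siRNAs, 3 above and 4 below, against 54.5% of all tested genes, 27.1% above and 27.5% below. The members' median difference was -0.01 and the median of its absolute size 0.06, beside -0.001 and 0.11 over all tested genes.

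**Figure D4:**
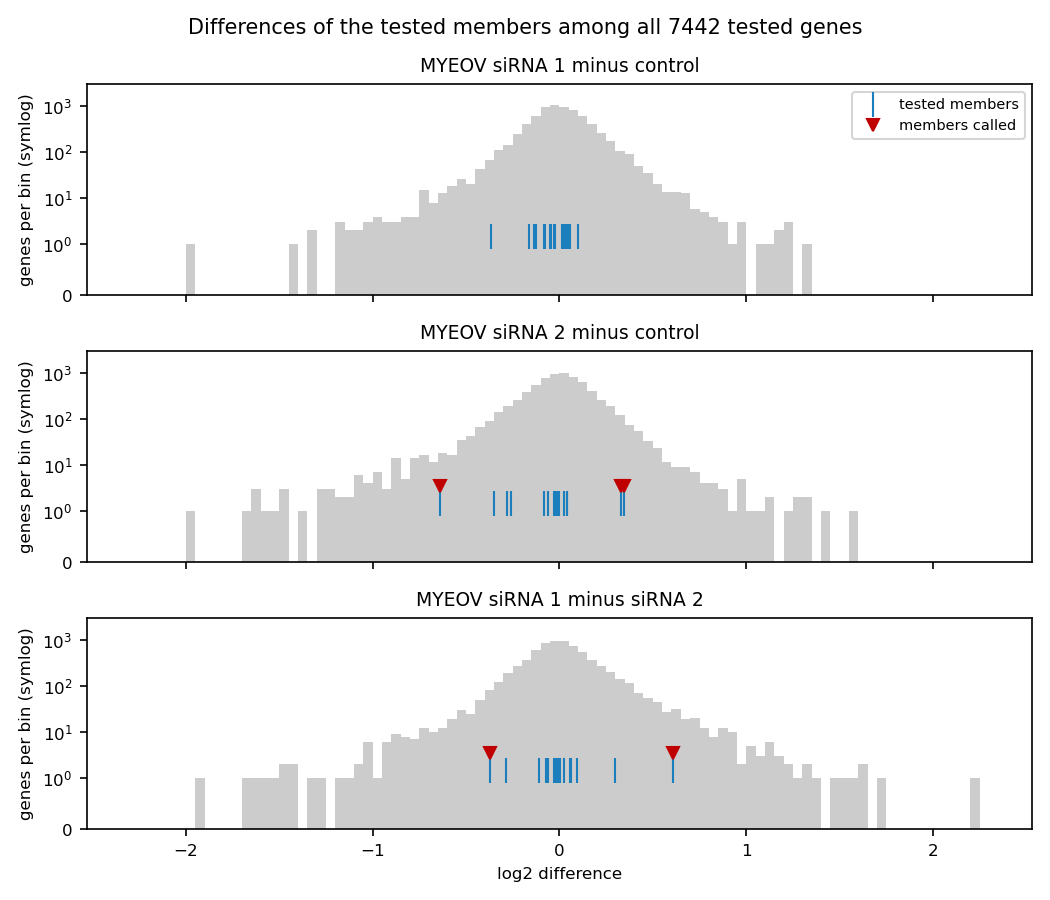
Log2 differences of all 7442 tested genes as grey bars (genes per bin of 0.05, on an axis that is linear below 1 and logarithmic above) with the 17 tested members as blue ticks and called members as red triangles. The ticks span -0.37 to 0.10 for siRNA 1, -0.64 to 0.35 for siRNA 2 and -0.37 to 0.61 between the siRNAs. The grey bars include the members.

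The wider pathway was read from 101 further genes: other HIF regulators, other glycolytic isoenzymes, carriers, enzymes that admit pyruvate to the mitochondrion, gluconeogenesis and glycogen enzymes, and other HIF targets. Of these, 50 had a row and 39 were tested. With siRNA 1 limma called 0 of 39, against 4.66% of all tested genes. With siRNA 2 it called 1 higher and 1 lower, against 6.83%. Between the siRNAs it called 2, both higher with siRNA 1, against 9.15%. An unadjusted p under 0.05 was seen for 6, 10 and 8 of the 39 in these comparisons. The shares of all tested genes were 19.2%, 22.2% and 23.6%. The median differences were 0.05, 0.02 and 0.02 in that order. The shares called in the members' paragraphs apply here as well, since both lists come from 1 fit over all genes.

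SIAH2, a ubiquitin ligase known to target EGLN proteins, had 8.31 and 7.94 with control siRNA, 8.05 and 8.07 with siRNA 1, and 7.49 and 7.29 with siRNA 2. Both siRNA 2 arrays were the lowest. SIAH2 fell by 0.74 ± 0.13 (SE) with siRNA 2 (limma, Benjamini-Hochberg adjusted p = 0.0191, interval -1.04 to -0.43) and was higher with siRNA 1 than with siRNA 2 by 0.67 (adjusted p = 0.0216). With siRNA 1 its difference from control was -0.06. The siRNA 2 call was lost without control replicate 1 (0.0676) and without siRNA 2 replicate 2 (0.0984). The call between the siRNAs was lost without siRNA 1 replicate 1 or 2 (0.0994 and 0.111) and without siRNA 2 replicate 2 (0.102). With no filter the adjusted p was 0.121 and 0.117. SIAH1, CUL2, ARNT, EP300 and CREBBP, the other 5 tested HIF regulators, were called in no comparison.

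PC, pyruvate carboxylase, which feeds pyruvate into gluconeogenesis and the citric acid cycle, had 6.56 and 6.38 with control siRNA, 6.60 and 6.56 with siRNA 1, and 6.85 and 6.93 with siRNA 2. It rose by 0.42 ± 0.08 (SE) with siRNA 2 (interval 0.23 to 0.62, limma, Benjamini-Hochberg adjusted p = 0.0300). The adjusted p was 0.107 without control replicate 2, 0.0621 without either siRNA 1 array or with the 2 groups alone, 0.0916 and 0.152 without siRNA 2 replicates 1 and 2, and 0.183 with no filter.

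EFNA1, an ephrin ligand and HIF target, had 6.33 on both arrays of the control, against 6.71 and 6.61 with siRNA 1 and 6.02 and 6.35 with siRNA 2. Both siRNA 1 arrays were the highest, and the siRNA 2 arrays lay on either side of the control. EFNA1 was higher with siRNA 1 than with siRNA 2 by 0.48 ± 0.11 (SE) (limma, Benjamini-Hochberg adjusted p = 0.0437), while neither siRNA differed from control at the threshold (0.33 and -0.14, adjusted p = 0.161 and 0.523). That call was lost without siRNA 1 replicate 1 or 2 (0.194 and 0.131), without siRNA 2 replicate 1 (0.146), without either control array or with the 2 groups alone (0.0747), and with no filter (0.190). The other HIF targets of the wider list, 19 of which were tested, included 0 calls with siRNA 1 or siRNA 2 and EFNA1 between the siRNAs. With siRNA 2, 15 of the 19 had a difference above 0 and 4 one below, with a median of 0.09. An unadjusted p under 0.05 was seen for 1 of them, against 22.2% of all tested genes. Of the 7 tested members grouped here as other HIF targets, 1 lay above 0 and 6 below, with a median of -0.03. HIF targets in the other member groups, such as LDHA, are not among these 7. Of all 17 tested members 5 lay above 0 and 12 below, and of all tested genes 3738 lay above and 3704 below. The 6 tested genes of pyruvate entry into the mitochondrion were called in none. Their median difference was 0.16 with siRNA 1 and 0.19 with siRNA 2. Of the 6, 2 and 5 had an unadjusted p under 0.05, against 19.2% and 22.2% of all tested genes. The arrays did not overlap the control arrays for 4 genes above with siRNA 1, and for 4 above and 1 below with siRNA 2. Of all tested genes, 24.4% lay above with siRNA 1, and 25% above and 25.6% below with siRNA 2. Both comparisons use the same 2 control arrays. Among the 6, the gene below was DLAT, a subunit of pyruvate dehydrogenase chosen here after its values were seen. It had a log2 difference of -0.34 with siRNA 2 (limma, Benjamini-Hochberg adjusted p = 0.0858). DLAT was called lower with siRNA 2 with the filter at the 75th percentile and with the trend and robust prior. DLD, another of the 6, was called higher with siRNA 2 under both of these alternatives. It was likewise chosen after its values were seen. In the fit used above its log2 difference with siRNA 2 was 0.25 (limma, Benjamini-Hochberg adjusted p = 0.109). The single tested genes of the carrier and isoenzyme lists were also called in none.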

How the data were processed

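RNA of 6 arrays was compared. The deposited log2 signals came from RMA, as the submitters' processing notes say without a version. That method subtracts background, gives all arrays 1 distribution of values and combines the probes of a transcript, and it shrinks differences of dim transcripts. The genome build is not given in the sources used here. Array medians lay between 4.08 and 4.10.

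Of 53617 rows, the platform annotation gave 1 symbol to 16098, several to 0 and none to 37519. These stand for 14884 genes, and the row with the highest mean was used for the 779 genes with several. The gene identifiers of all 16098 rows were found in the RefSeq table of GRCh38.p14. Genes with a mean over 6 arrays at or above 5.45, the median of named genes, entered a linear model per gene in limma 3.58.1 (R 4.3.3, functions lmFit and eBayes), with the 3 groups of all arrays, 3 residual and 4.09 prior degrees of freedom. Calls needed a Benjamini-Hochberg adjusted p under 0.05 over all 7442 genes. The smallest p of an exact permutation test with 2 arrays per side is 0.333. Both siRNA comparisons share the control arrays. The fit was tested on simulated data.

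The members, lists and tests were chosen with earlier results of these data known. Members called in any comparison, and the 3 largest differences per comparison, are given on each array. Of the further pathway genes, those called are named with values. DLAT and DLD are given too, although they were chosen after their values were seen and were called only under some alternatives. Alternatives were no filter, a filter at the 75th percentile, averaged rows, quantile normalization, median centring, the 2 groups alone, a replicate block, a trend and robust prior, and each array left out. Leaving out an array of the group not compared gives the same fit as the 2 groups alone. These alternatives repeat a single result but are counted separately in the numbers of alternatives. The number of arrays limits the precision. Figures were drawn with matplotlib 3.10.9.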

Additional observations from a re-analysis of the deposited data

Results flagged for a closer look

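In 4 genes the effect of MYEOV siRNA 2 differed from that of MYEOV siRNA 1 by limma's test of siRNA 1 against siRNA 2. The threshold was a Benjamini-Hochberg adjusted p under 0.05 over all genes. They were 2 of the 17 tested members and 2 of the 39 tested pathway genes, where 9.15% of all tested genes were called. The log2 difference, siRNA 1 minus siRNA 2, was 0.61 for the hydroxylase EGLN1, -0.37 for VEGFA, 0.67 for the ubiquitin ligase SIAH2 and 0.48 for EFNA1. EGLN1, VEGFA and SIAH2 had siRNA 1 arrays that overlapped the control arrays, and EFNA1 had siRNA 1 arrays above them. The cause of the differences was not tested.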

How the results depend on the processing

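None of the 5 member differences that limma called was called under every alternative, and none changed sign. Of the 46 uncalled member differences, 27 changed sign under some alternative and 4 were called under some: PGAM1 with each siRNA, BNIP3L with siRNA 2 and BNIP3L between the siRNAs. With no filter, 14884 genes were tested, and 0 members and 0 further pathway genes were called in any comparison. Those lost were the 3 and 2 members, and 2 and 2 pathway genes, of siRNA 2 and of the siRNAs against each other. Over all genes, no filter gave 39 calls with siRNA 1, 139 with siRNA 2 and 195 between the siRNAs. The fit used above called 347, 508 and 681 in that order. With the 2 groups alone, 1 member and 1 pathway gene were called for siRNA 2 and 1 pathway gene between the siRNAs. Over all genes, 331 were called for siRNA 2 and 618 between the siRNAs. With siRNA 1 the filter at the 75th percentile and the trend and robust prior each called 1 member, PGAM1, and that prior called 4 pathway genes with siRNA 2. Over all genes that filter called 425 with siRNA 1 and 574 with siRNA 2, and that prior 501 and 695. With an array left out in turn, some member and pathway gene calls of siRNA 2 and between the siRNAs were lost. None was gained in any comparison. In each of these fits fewer genes were also called over all tested genes, so the losses were not confined to these lists. Where leaving out an array leaves 1 in a group, that array is assumed to vary like the other groups. With the replicate number as a block, 1 member and 1 pathway gene (SERTAD2, chosen after its value was seen) were called for siRNA 1 and 5 members for siRNA 2. The member called with siRNA 1 was PGAM1, and those with siRNA 2 were EGLN1, HK1, VEGFA, PGAM1 and BNIP3L. The block also called DLAT with siRNA 2. Over all genes the block called 420 with siRNA 1 and 702 with siRNA 2, more than the fit used above. The deviations of same-numbered arrays correlated at 0.265, 0.205 and 0.251, but 2 numbers per group cannot show that they pair the samples. Signal over background limits the dim genes EGLN3, HK2 and ANKRD37, and the 18 members with no named row have no value here.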
